A study of Homo sapiens with 12 samples.

Results

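The genes described here are 52 genes that a dividing human cell switches on for G2 phase and mitosis: the mitotic cyclins and their kinase, the mitotic kinases, the spindle checkpoint, the kinetochore, the mitotic kinesins and the proteins of spindle assembly, cytokinesis and chromosome structure. They were taken from a list of names and each was followed through 1 probe set, the one that carries a single gene symbol and has the highest mean over the 12 arrays. In this way 51 of the 52 were measured, among 18417 genes in all. The exception was CENPA, whose probe set carries 2 symbols.

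All RNA came from Calu-3, an established line of human airway epithelial cells derived from a lung adenocarcinoma. Cells of 3 arrays received a synthetic miR-138, the miR-138 mimic (mimic arrays), cells of 3 arrays a small interfering RNA against SIN3A (siRNA arrays) and cells of 6 arrays NC1, a scrambled control RNA. The SIN3A protein holds together a corepressor complex with histone deacetylases. Every group, the controls included, thus carried a transfected RNA and the lipid reagent that delivered it, and none of the arrays analysed here held untransfected cells. The sources used here give neither doses nor the time to harvest. The labels call the replicates biological without naming separate cultures, so the p-values measure the spread between these samples. The extraction note speaks of primary cultures, and the labelled line was followed. NC1 replicates 1 to 3 (NC1 1-3) and 4 to 6 (NC1 4-6) are set apart throughout, because their values differ.

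Transcripts of these genes accumulate as cells approach mitosis and are low in cells that rest or sit in G1. Many of them are repressed in resting cells by the DREAM complex and activated later by MuvB with B-MYB and FOXM1, which act on promoters that carry a cell cycle gene homology region (CHR, core TTTGAA) and CCAAT boxes bound by NF-Y. A microRNA lowers transcripts by pairing its seed, bases 2 to 8, with sites that lie mostly in their 3′ ends. In bulk RNA, fewer cells in G2 and mitosis and less RNA per cell cannot be told apart.

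The mature strands of miR-138 in RefSeq (GRCh38.p14) are shown because the mimic is named for them. The labels do not say which arm the mimic carries. The capitals mark the seed, and the 5p strand is the same from both loci, at chr3:44114234-44114256 and chr16:56858527-56858549, both on the plus strand.
hsa-miR-138-5p: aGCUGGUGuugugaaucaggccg
hsa-miR-138-1-3p: gCUACUUCacaacaccagggcc
hsa-miR-138-2-3p: gCUAUUUCacgacaccaggguu

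The siRNA was checked first on its target. SIN3A was at 6.17, 5.88 and 6.03 in the siRNA arrays and at 5.93, 6.05 and 6.25 in the mimic arrays, against 6.79, 6.71 and 6.36 in NC1 1-3 and 7.34, 7.16 and 7.11 in NC1 4-6 (log2 units, as are all levels below). Both groups lay below all 6 controls, with a log2 difference from all NC1 of -0.88 (SE 0.17, adjusted p = 0.0111) with the siRNA and -0.83 (SE 0.17, adjusted p = 0.0304) with the mimic. The log2 difference NC1 4-6 minus NC1 1-3 was 0.58 (adjusted p = 0.00574) for SIN3A. Array medians over all probe sets ran from 5.09 to 5.16, the 2 highest being NC1 3 and NC1 6. Arrays correlated with each other at r of 0.967 to 0.995 across the 18417 genes. All 11 measured epithelial markers lay above the median level of all genes (5.29). Of the markers of other cells, 2 of 9 for fibroblasts, 1 of 8 for leukocytes and 0 of 6 for endothelium lay above it, and the array medians of these lists stayed between 4.04 and 4.98. Some single markers moved with the groups. CFTR, the chloride channel of airway epithelium, differed from all NC1 by -1.34 (adjusted p = 0.000203) with the siRNA. With the mimic it differed from NC1 4-6 by -0.57 (adjusted p = 0.0188) and from the siRNA by 0.95 (adjusted p = 0.000328). It was not called with the mimic against NC1 1-3 or all NC1. ELF3 was lower with the siRNA than in NC1 4-6 (-0.38), and MUC1 with the mimic than in NC1 1-3 (-0.73). KRT8 was higher in NC1 4-6 than in NC1 1-3 (0.39). CD68, a leukocyte marker, differed from NC1 4-6 by 0.48 (adjusted p = 0.0164) with the mimic and 0.55 (adjusted p = 0.00266) with the siRNA, and NC1 4-6 from NC1 1-3 by -0.46 (adjusted p = 0.0113). No other leukocyte marker and no fibroblast or endothelial one was called in any comparison, and the part of these markers in the results was not tested.

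The mitotic genes were lowest in the mimic arrays and highest in NC1 4-6. The median deviation of the 51 members from their own mean over the 12 arrays was -0.31, -0.21 and -0.16 in the 3 mimic arrays and -0.05, 0.03 and 0.04 in the siRNA arrays, against 0.12, 0.01 and -0.24 in NC1 1-3 and 0.41, 0.37 and 0.11 in NC1 4-6. Over all 18417 genes the same median stayed between -0.02 and 0.02 on every array. Of the 51 members, 49, 47 and 43 lay below their own mean in the 3 mimic arrays. Their lowest array was a mimic array for 33 members and NC1 3 for 15, while the highest was NC1 4 or NC1 5 for 39. NC1 3 thus stood apart from NC1 1 and NC1 2, and NC1 6 from NC1 4 and NC1 5, each being lower for these genes than the other two of its subset. Counts without both of these arrays are given beside those with them. The arrays were picked for their low values in these same genes. Leaving them out raises the control means of most members, so more lower calls against NC1 are built in. No support is drawn from those counts.

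**Figure D1:**
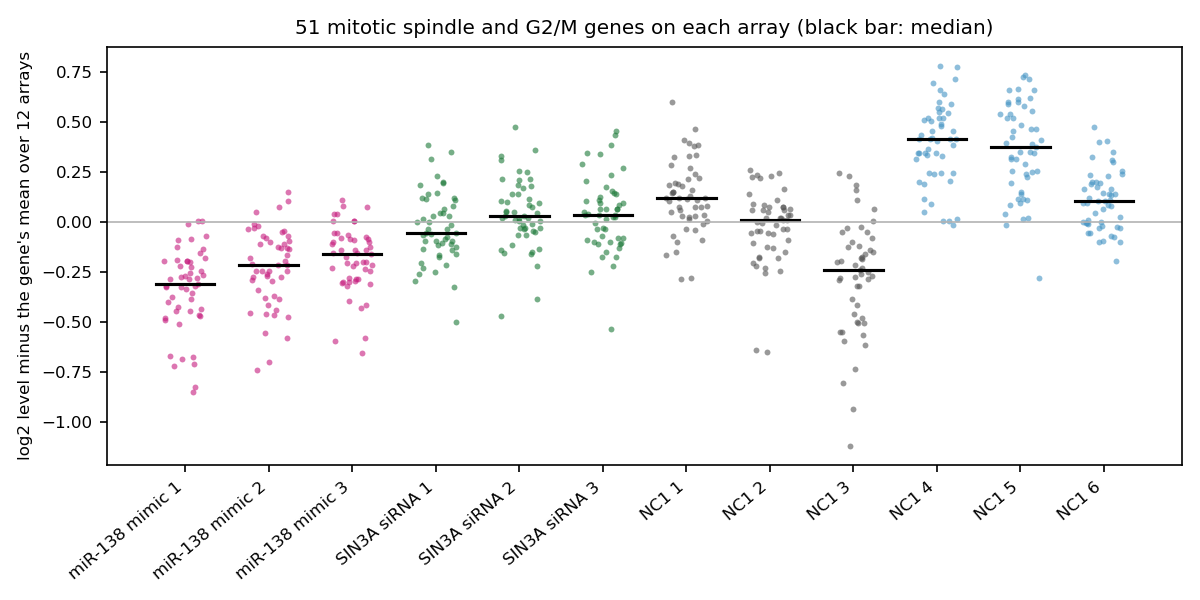
Each point is 1 of the 51 mitotic spindle and G2/M genes on 1 array, as its log2 level minus its mean over the 12 arrays, and black bars are medians. The 3 mimic arrays have medians of -0.31 to -0.16 and the siRNA arrays of -0.05 to 0.04, while NC1 4 and NC1 5 reach 0.41 and 0.37 and NC1 3 falls to -0.24.

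With the mimic, 9 of the 51 members (17.6%) were called lower than all NC1 arrays and 0 higher (limma, adjusted p under 0.05 over all genes), where 0.402% of all genes were called lower and 0.641% higher. At an unadjusted p under 0.05, 31 members were lower and 0 higher. The 9 were KIF20A, CDKN3, MKI67, FOXM1, PTTG1, BIRC5, NDC80, ASPM and TPX2, and each of them was also called lower against either subset of NC1 taken alone. Such a call against both subsets was made for 75 genes, 0.407% of all. The median log2 difference of the members was -0.33, beside -0.01 over all genes, and 50 of 51 were negative. In 14 members all 3 mimic arrays lay below all 6 NC1 arrays, which held for 2.54% of all genes. They were the 9 named and CDC25C, AURKB, CENPF, KIF23 and CDC20. Without NC1 3 the count of lower calls was 18, without both NC1 3 and NC1 6 it was 19, and without mimic 1 or mimic 2 it was 4 in either case. A further quantile normalization of the deposited values gave 17 lower and 0 higher. KIF20A, CDKN3, MKI67 and FOXM1 kept their call whichever single array was left out.

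Against NC1 4-6 alone, 31 of 51 members (60.8%) were lower with the mimic and 0 higher, and at an unadjusted p under 0.05 it was 47 and 0. Of all genes, 1.89% were called lower in this comparison and 1.59% higher. All 51 members had a negative log2 difference, with a median of -0.50, and in 42 the groups did not overlap (9.36% of all genes). Against NC1 1-3 alone, 9 members (17.6%) were lower and 2 higher, NUF2 and HMMR, beside 2.54% of all genes lower and 6.01% higher. The median difference there was -0.20, and 16 members lay wholly below NC1 1-3 (11.0% of all genes) while KIF18A, HMMR and ANLN lay wholly above (12.8%). The 2 comparisons share the mimic arrays. Without NC1 4, NC1 5 or mimic 1 the calls against NC1 4-6 numbered 17 each time, and without NC1 3 those against NC1 1-3 numbered 18, all of them lower. Without both NC1 3 and NC1 6 they numbered 44 and 19, all lower. The further quantile normalization gave 37 lower against NC1 4-6, and 17 lower and 1 higher against NC1 1-3.

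With the SIN3A siRNA, 2 of 51 members, MAD2L1 and FOXM1, were called lower than all NC1 arrays (3.92%, beside 1.66% of all genes lower) and 0 higher (2.35% of all genes). At an unadjusted p under 0.05, 4 were lower and 5 higher. The median log2 difference was -0.09, beside -0.01 over all genes. All siRNA arrays lay below all 6 controls for MAD2L1, MKI67 and FOXM1 (3.53% of all genes). Neither call held whichever array was left out, and without siRNA 3 there was none, with 3 members at an unadjusted p under 0.05. The count was 1 without siRNA 1, siRNA 2, NC1 4, NC1 5, NC1 6 or mimic 2, and 4 without both NC1 3 and NC1 6.

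The counts with the siRNA differed between the NC1 subsets. Against NC1 4-6, 16 members (31.4%) were lower and 0 higher (3 higher at an unadjusted p under 0.05), beside 6.28% of all genes lower and 5.16% higher, with a median difference of -0.31. Against NC1 1-3, 1 member was lower, MAD2L1, and 2 were higher, NUF2 and HMMR, beside 2.04% and 3.66% of all genes, with a median difference of 0.08. MAD2L1 alone was lower against both subsets (0.972% of all genes), and HMMR was called in opposite directions (0.223%). Against NC1 4-6 the count was 7 to 10 when siRNA 1, 2 or 3, NC1 4 or NC1 5 was left out, and against NC1 1-3 it was 6 without NC1 1, 5 without NC1 6 and 1 without siRNA 2. Without both NC1 3 and NC1 6 the counts were 26 and 3.

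The control subsets themselves differed in these genes. In NC1 4-6, 18 of 51 members (35.3%) were higher than in NC1 1-3 and 0 were lower (1 lower at an unadjusted p under 0.05), beside 6.86% of all genes higher and 3.18% lower. The median difference was 0.32, beside -0.02 over all genes, and in 18 members the 2 subsets did not overlap in this direction (12.0% of all genes). The count was 11, 8 and 10 without NC1 3, NC1 4 and NC1 5 in turn, and 19 without both NC1 3 and NC1 6. The labels give no run or batch for the arrays, so what sets the subsets apart was not tested.

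**Figure D2:**
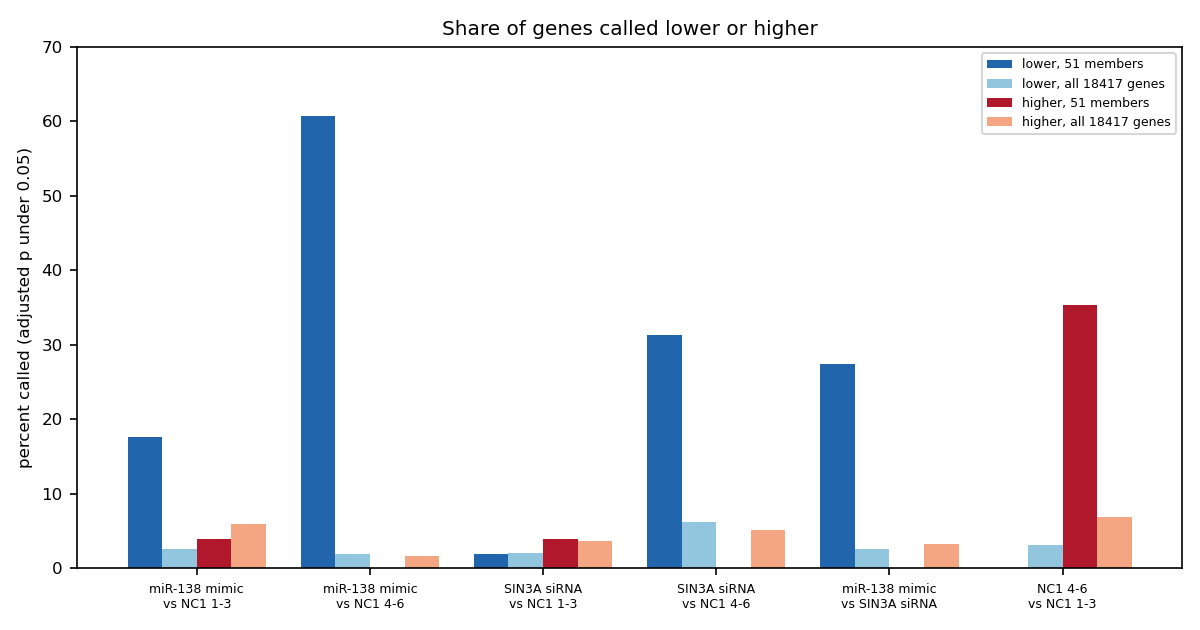
Bars give the percent of the 51 members and of all 18417 genes called lower or higher at an adjusted p under 0.05 in 6 comparisons. The mimic against NC1 4-6 has 60.8% of members lower beside 1.89% of all genes, the siRNA against NC1 1-3 has 1 member lower and 2 higher, and NC1 4-6 has 35.3% of members higher than NC1 1-3.

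The mimic and siRNA arrays were also compared with each other, a difference in which the controls enter through the shared variance alone. It compares levels, not changes from a control, since the labels tie neither NC1 subset to a treatment. With the mimic, 14 of 51 members (27.5%) were lower than with the siRNA and 0 were higher (0 also at an unadjusted p under 0.05, where 21 were lower), beside 2.60% of all genes lower and 3.26% higher. The median difference was -0.21, with 45 members negative and 6 positive. The 14 were CDKN3, KIF20A, CENPE, BIRC5, NEK2, PTTG1, ASPM, PBK, CCNB2, MKI67, TPX2, KIF2C, KIF23 and CCNB1. Of these, CDKN3, KIF20A, CENPE, BIRC5, NEK2, PTTG1, MKI67 and TPX2 stayed called whichever array was left out. The count was 9 without siRNA 1, siRNA 2, siRNA 3 or mimic 2 and 8 without mimic 1. Without both NC1 3 and NC1 6, 17 members were lower and 2 higher.

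**Figure D3:**
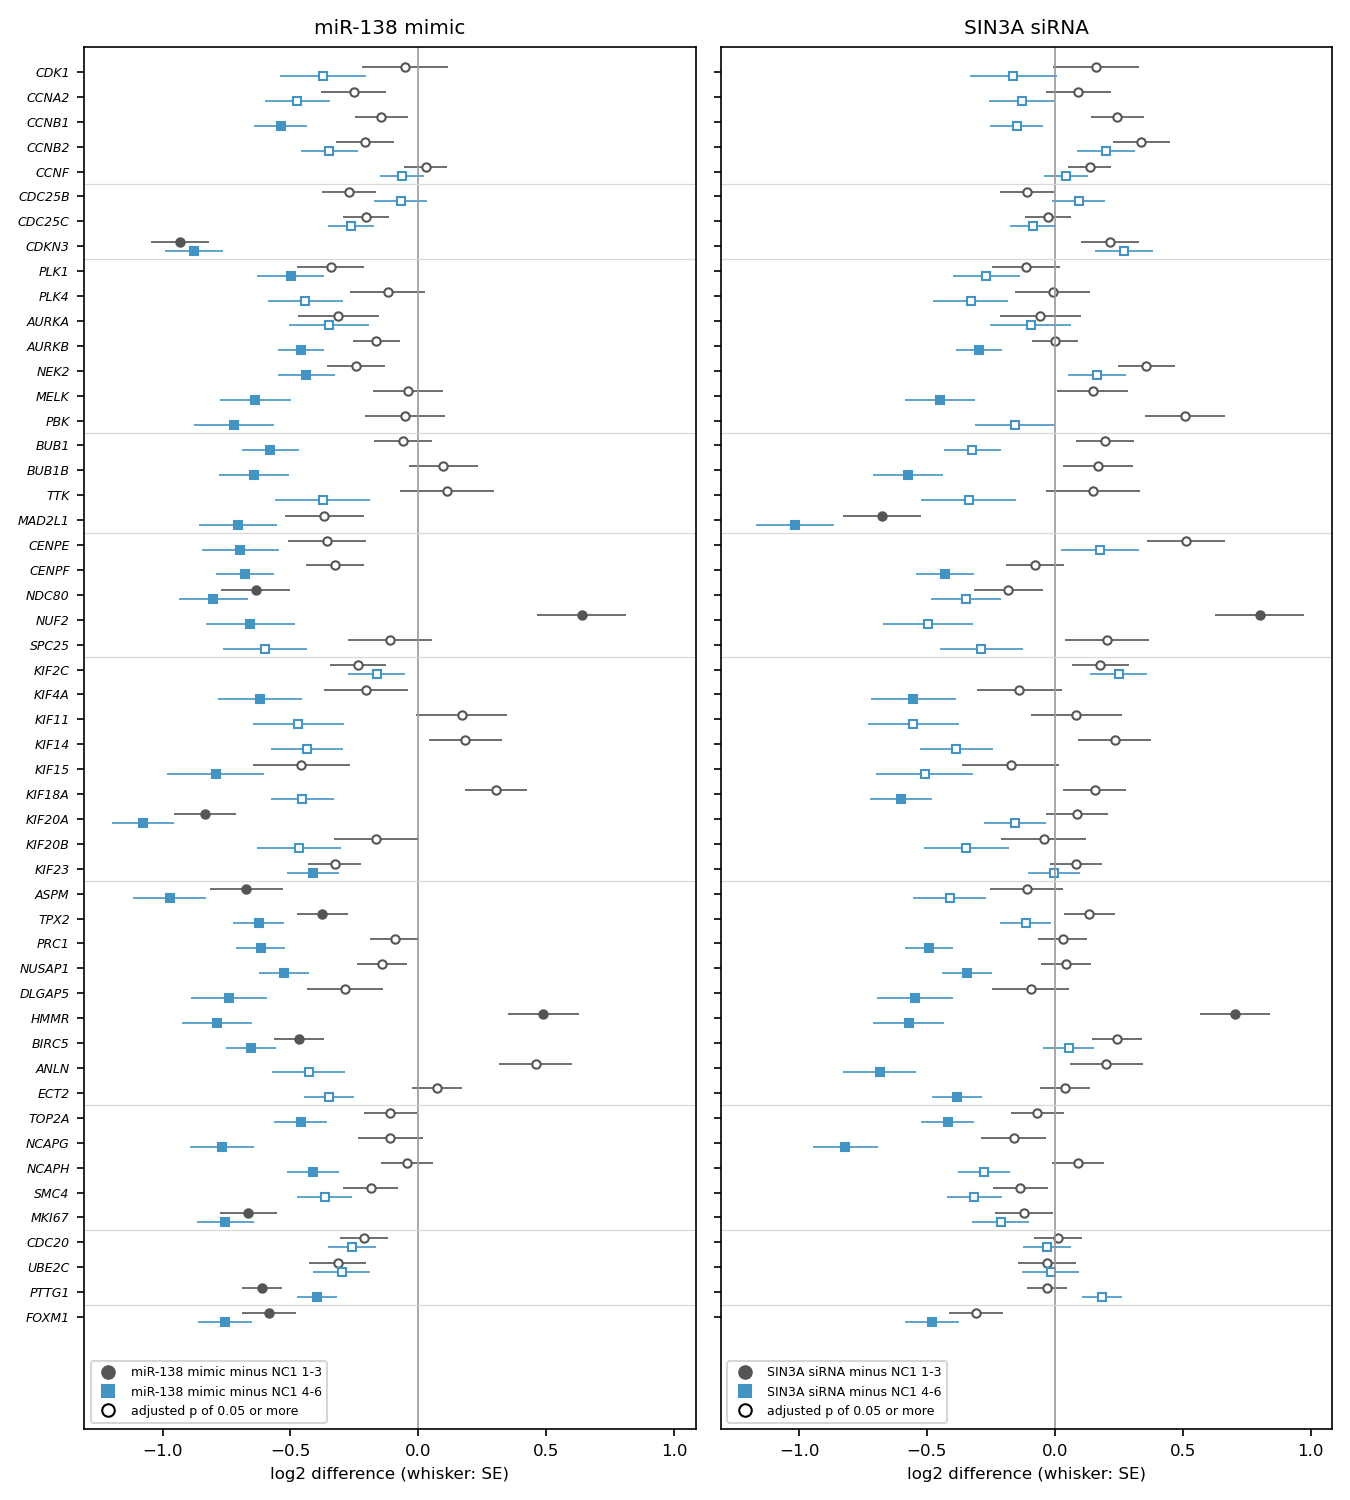
Points are log2 differences with their SE for the 51 members, ordered by role from the cyclins at the top to FOXM1 at the bottom, for the mimic (left) and the siRNA (right), each against NC1 1-3 (grey circles) and NC1 4-6 (blue squares). Filled points passed an adjusted p of 0.05. With the mimic all 51 blue points lie below 0, and the 9 members filled in grey below 0 are also filled in blue.

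Among the mitotic cyclins and their kinase, the mimic arrays were called lower than NC1 4-6 for 1 of 5 members, CCNB1, and 0 of 5 were called against NC1 1-3 or all NC1. CDK1, the kinase that drives entry into mitosis, was at 6.10, 6.31 and 6.09 in the mimic arrays and at 6.22, 6.49 and 6.42 in the siRNA arrays, against 6.54, 6.34 and 5.77 in NC1 1-3 and 6.78, 6.61 and 6.23 in NC1 4-6. The NC1 arrays alone spanned 5.77 to 6.78 and so enclosed every treated array. Its log2 difference from all NC1 was -0.21 (SE 0.17, adjusted p = 0.720) with the mimic and -0.00 (adjusted p = 0.998) with the siRNA.

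CCNB1 encodes cyclin B1, the main partner of CDK1. It was at 7.59, 7.73 and 7.61 in the mimic arrays and 7.97, 8.01 and 8.12 in the siRNA arrays, against 7.99, 7.73 and 7.64 in NC1 1-3 and 8.26, 8.26 and 8.03 in NC1 4-6. The mimic arrays overlapped NC1 1-3 and lay below NC1 4-6 and below the siRNA arrays. The difference was -0.54 (SE 0.10, adjusted p = 0.00617) from NC1 4-6 and -0.39 (SE 0.10, adjusted p = 0.0365) from the siRNA, and NC1 4-6 exceeded NC1 1-3 by 0.39 (adjusted p = 0.0227). The call against NC1 4-6 was kept whichever array was left out, that against the siRNA was lost without any of the 6 treated arrays in turn (adjusted p up to 0.143), and that between the subsets without any of 4 (up to 0.107). CCNB2, cyclin B2, was at 7.08, 7.32 and 7.48 in the mimic arrays and 7.69, 7.88 and 7.95 in the siRNA arrays, against 7.63, 7.53 and 7.34 in NC1 1-3 and 7.68, 7.68 and 7.56 in NC1 4-6. All siRNA arrays lay above all 6 controls, which held for 5.49% of all genes and for no other member, and the difference from all NC1 was 0.27 (adjusted p = 0.193). The difference between mimic and siRNA was -0.55 (SE 0.11, adjusted p = 0.00803), and it missed the threshold without mimic 1 (adjusted p = 0.0508). CCNA2, cyclin A2, differed by -0.47 (adjusted p = 0.0503) from NC1 4-6 with the mimic, and CCNF, cyclin F, by -0.06 (adjusted p = 0.908).

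Of the 3 phosphatases of the CDK group, CDKN3 was called with the mimic and the CDC25 members were not. CDKN3 is a dual-specificity phosphatase that removes the activating phosphate from CDKs. It was at 6.35, 6.43 and 6.52 in the mimic arrays and 7.48, 7.64 and 7.60 in the siRNA arrays, against 7.58, 7.39 and 7.12 in NC1 1-3 and 7.36, 7.42 and 7.14 in NC1 4-6. Every mimic array lay below every other array, and the control subsets overlapped, with a difference of -0.06. The difference of the mimic was -0.90 (SE 0.10, adjusted p = 0.00137) from all NC1, a level of 53.4% of the control, and -0.93 (adjusted p = 9.92e-05) and -0.88 (adjusted p = 0.000214) from the subsets. From the siRNA it was -1.15 (SE 0.11, adjusted p = 2.67e-05), the largest difference of a member in that comparison, while the siRNA itself differed from all NC1 by 0.24 (adjusted p = 0.232). CDC25C and CDC25B, the phosphatases that activate CDK1, differed from all NC1 by -0.23 (adjusted p = 0.211) and -0.17 (adjusted p = 0.585) with the mimic.

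The 7 mitotic kinases gave 5 calls against NC1 4-6 with the mimic, PLK1, AURKB, NEK2, MELK and PBK, and 0 against NC1 1-3. With the siRNA, AURKB and MELK were called against NC1 4-6. NEK2, which drives centrosome separation, was at 6.74, 6.92 and 7.01 in the mimic arrays and 7.35, 7.57 and 7.55 in the siRNA arrays, against 7.36, 7.11 and 6.94 in NC1 1-3 and 7.41, 7.25 and 7.32 in NC1 4-6. The siRNA arrays were the higher of the treated groups without overlap, and the mimic differed from the siRNA by -0.60 (SE 0.11, adjusted p = 0.00416). From all NC1 NEK2 differed by -0.34 (adjusted p = 0.183) with the mimic and 0.26 (adjusted p = 0.229) with the siRNA. PLK1, a kinase with roles from mitotic entry to cytokinesis, differed by -0.50 (adjusted p = 0.0473) from NC1 4-6 with the mimic, a call that was lost when any of 9 arrays was left out. AURKB, the kinase of the chromosomal passenger complex, differed by -0.46 (adjusted p = 0.00717) with the mimic and -0.30 (adjusted p = 0.0443) with the siRNA from NC1 4-6, and the siRNA call was lost when any of 8 arrays was left out (adjusted p up to 0.173). AURKA, which acts at the spindle poles, was not called in any comparison, at -0.33 (adjusted p = 0.367) from all NC1 with the mimic.

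In the spindle checkpoint, which delays anaphase until chromosomes are attached, MAD2L1 was lower with the siRNA against all NC1 and against both subsets, and BUB1B against NC1 4-6. MAD2L1 encodes MAD2, an inhibitor of the anaphase-promoting complex. It was at 6.40, 6.37 and 6.41 in the mimic arrays and 6.09, 6.11 and 6.05 in the siRNA arrays, against 7.05, 6.83 and 6.40 in NC1 1-3 and 7.28, 7.30 and 6.73 in NC1 4-6. All siRNA arrays lay below all others, and the mimic arrays met NC1 3 at 6.40. The siRNA differed by -0.85 (SE 0.16, adjusted p = 0.00856) from all NC1, a level of 55.6% of the control, and by -0.68 (adjusted p = 0.0163) and -1.02 (adjusted p = 0.000336) from the subsets. The call against all NC1 was lost without siRNA 3 (adjusted p = 0.0551), and that against NC1 1-3 without siRNA 2, siRNA 3 or NC1 2 (adjusted p up to 0.0607). With the mimic it was called against NC1 4-6, at -0.71 (adjusted p = 0.0139), but not when NC1 4, NC1 5 or a mimic array was left out. The mimic differed from the siRNA by 0.31 (adjusted p = 0.311), a positive value that was not called. BUB1 and BUB1B, the checkpoint kinase and its relative BUBR1, differed from NC1 4-6 by -0.58 (adjusted p = 0.00624) and -0.64 (adjusted p = 0.0117) with the mimic. With the siRNA BUB1B differed from NC1 4-6 by -0.57 (adjusted p = 0.0106) and from NC1 1-3 by 0.17 (adjusted p = 0.551). The BUB1B calls were lost without any of 4 arrays in turn with the mimic (adjusted p up to 0.0806) and without siRNA 2 or NC1 5 with the siRNA (up to 0.0682). TTK, the checkpoint kinase MPS1, differed from NC1 4-6 by -0.37 (adjusted p = 0.450) with the mimic and was not called.

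At the kinetochore, NDC80 was lower with the mimic against both subsets, while its binding partner NUF2 was called in opposite directions. NDC80 and NUF2 form the rod that binds spindle microtubules. NDC80 was at 6.42, 6.63 and 6.80 in the mimic arrays and 7.0, 7.06 and 7.16 in the siRNA arrays, against 7.47, 7.32 and 6.97 in NC1 1-3 and 7.59, 7.48 and 7.18 in NC1 4-6. The mimic arrays lay below all others, with a log2 difference of -0.72 (SE 0.12, adjusted p = 0.0112) from all NC1, a call that was lost without mimic 1 or mimic 2 (adjusted p up to 0.109). NUF2 was at 6.13, 6.59 and 6.60 in the mimic arrays and 6.51, 6.74 and 6.55 in the siRNA arrays, against 6.20, 5.84 and 5.37 in NC1 1-3 and 7.26, 7.14 and 6.89 in NC1 4-6. Both treated groups lay between the subsets in their means. The mimic differed by 0.64 (adjusted p = 0.0311) from NC1 1-3 and by -0.66 (adjusted p = 0.0488) from NC1 4-6, while NC1 4-6 exceeded NC1 1-3 by 1.30 (SE 0.17, adjusted p = 0.000152), the largest such difference of the 51 members. Opposite calls against the subsets were made for 0.157% of all genes with the mimic, NUF2 and HMMR among the members. The call for NUF2 was lost without any of 4 arrays in turn against NC1 1-3 (adjusted p up to 0.13) and any of 9 against NC1 4-6 (up to 0.266).

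CENPE, the kinesin that carries chromosomes to the spindle equator, was at 5.08, 5.30 and 5.46 in the mimic arrays and 6.15, 6.10 and 6.22 in the siRNA arrays, against 5.84, 5.82 and 5.26 in NC1 1-3 and 6.13, 6.11 and 5.70 in NC1 4-6. The siRNA arrays lay above the mimic arrays with a gap, and NC1 3 fell inside the range of the mimic arrays. The mimic differed from the siRNA by -0.87 (SE 0.15, adjusted p = 0.00257) and from all NC1 by -0.53 (adjusted p = 0.145), and the siRNA from all NC1 by 0.35 (adjusted p = 0.280). CENPF, a large kinetochore protein, differed by -0.50 (adjusted p = 0.0813) from all NC1 with the mimic, which was not called, and by -0.68 (adjusted p = 0.00230) from NC1 4-6. The shared probe set of CENPA, the centromeric histone, and SLC35F6 averaged 6.27 in the mimic arrays and 6.43 in the siRNA arrays, against 6.71 in NC1 1-3 and 6.61 in NC1 4-6. It was not tested among the genes.

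Of the 9 mitotic kinesins, KIF20A was the member with the largest fall under the mimic against all NC1 and against NC1 4-6. KIF20A, a kinesin of the central spindle needed for cytokinesis, was at 5.93, 6.08 and 6.20 in the mimic arrays and 6.97, 6.99 and 7.01 in the siRNA arrays, against 7.16, 6.83 and 6.73 in NC1 1-3 and 7.27, 7.24 and 6.92 in NC1 4-6. All 3 mimic arrays lay below all others with a gap, and the siRNA arrays fell within the controls. It differed by -0.96 (SE 0.12, adjusted p = 0.00159) from all NC1, a level of 51.6% of the control, by -0.84 (adjusted p = 0.000407) and -1.08 (adjusted p = 4.94e-05) from the subsets, and by -0.92 (SE 0.12, adjusted p = 0.000248) from the siRNA. KIF18A, which shortens the microtubules that end at kinetochores, was at 6.52, 6.68 and 6.61 in the mimic arrays and 6.40, 6.44 and 6.52 in the siRNA arrays, against 6.51, 6.38 and 6.01 in NC1 1-3 and 7.17, 7.16 and 6.84 in NC1 4-6. The mimic arrays lay above NC1 1-3 and below NC1 4-6 without overlap, at 0.30 (adjusted p = 0.153) and -0.45 (adjusted p = 0.0533), and NC1 4-6 exceeded NC1 1-3 by 0.76 (adjusted p = 0.000709). KIF11, the motor that pushes the spindle poles apart, was called only between the control subsets, at 0.64 (adjusted p = 0.0302), and not without any of 4 of their arrays in turn (adjusted p up to 0.156). KIF23, a subunit of centralspindlin, differed by -0.41 (adjusted p = 0.0328) from NC1 4-6 and -0.41 (adjusted p = 0.0253) from the siRNA with the mimic. The first call was lost without any of 5 arrays in turn (adjusted p up to 0.165) and the second without any of the 6 treated arrays (up to 0.0869).

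Among the 9 genes of spindle assembly and cytokinesis, ASPM, TPX2 and BIRC5 were lower with the mimic against either subset, and 7 of 9 were lower against NC1 4-6. ASPM, which focuses the spindle poles, was at 5.99, 6.14 and 6.30 in the mimic arrays and 6.64, 6.77 and 6.71 in the siRNA arrays, against 7.09, 6.86 and 6.50 in NC1 1-3 and 7.25, 7.27 and 6.83 in NC1 4-6. TPX2, which activates aurora A on the spindle, was at 8.23, 8.18 and 8.15 in the mimic arrays and 8.64, 8.77 and 8.67 in the siRNA arrays, against 8.69, 8.58 and 8.42 in NC1 1-3 and 8.89, 8.92 and 8.63 in NC1 4-6. In both genes the mimic arrays lay below every other array. The difference from all NC1 was -0.82 (SE 0.14, adjusted p = 0.0112) for ASPM and -0.50 (SE 0.10, adjusted p = 0.0303) for TPX2. The ASPM call was lost without mimic 1 or mimic 2 (adjusted p up to 0.107), and the TPX2 call without any of the 6 treated arrays in turn (adjusted p up to 0.167).

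BIRC5 encodes survivin, a subunit of the chromosomal passenger complex that also inhibits apoptosis. It was at 8.34, 8.27 and 8.57 in the mimic arrays and 9.08, 9.04 and 9.19 in the siRNA arrays, against 8.96, 8.87 and 8.75 in NC1 1-3 and 9.09, 9.11 and 8.95 in NC1 4-6. The mimic arrays lay below all others, with a log2 difference of -0.56 (SE 0.09, adjusted p = 0.00991) from all NC1 and -0.71 (SE 0.10, adjusted p = 0.000396) from the siRNA. The first call was lost without mimic 1 or mimic 2 (adjusted p up to 0.0905), and the second was kept. A second probe set of BIRC5 gave a difference of -0.30 from all NC1 with the mimic.

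HMMR and ANLN had the largest gaps between the control subsets after NUF2. HMMR, a microtubule-binding protein of the spindle, was at 6.99, 7.13 and 7.27 in the mimic arrays and 7.40, 7.25 and 7.38 in the siRNA arrays, against 6.98, 6.62 and 6.32 in NC1 1-3 and 8.03, 7.98 and 7.73 in NC1 4-6. Both treated groups lay between the subsets without overlap. The difference was 0.49 (adjusted p = 0.0369) and -0.79 (adjusted p = 0.00311) with the mimic and 0.70 (adjusted p = 0.00708) and -0.57 (adjusted p = 0.0116) with the siRNA, from NC1 1-3 and NC1 4-6 in that order. The positive call with the mimic was lost without any of 5 arrays in turn (adjusted p up to 0.153), and the negative one with the siRNA without any of 3 (up to 0.0594). The subset NC1 4-6 exceeded NC1 1-3 by 1.27 (SE 0.14, adjusted p = 1.89e-05). ANLN, the anillin scaffold of the contractile ring, was at 8.58, 8.74 and 8.67 in the mimic arrays and 8.33, 8.44 and 8.44 in the siRNA arrays, against 8.44, 8.39 and 7.79 in NC1 1-3 and 9.18, 9.21 and 8.89 in NC1 4-6. The mimic arrays again lay between the subsets, while the siRNA arrays overlapped NC1 1-3. The subsets differed by 0.89 (SE 0.14, adjusted p = 0.000644), and the siRNA differed from NC1 4-6 by -0.69 (adjusted p = 0.00409). PRC1, which bundles the microtubules of the central spindle, differed from NC1 4-6 by -0.62 (adjusted p = 0.00109) with the mimic and -0.49 (adjusted p = 0.00249) with the siRNA. Both calls stood whichever array was left out. Neither treatment was called against NC1 1-3, at -0.09 (adjusted p = 0.631) and 0.03 (adjusted p = 0.908) in that order. PRC1 was higher in NC1 4-6 than in NC1 1-3 by 0.52 (adjusted p = 0.00181).

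In the group of chromosome structure, MKI67 moved with the mimic against either subset, and the other 4 members were not called against NC1 1-3. MKI67 encodes Ki-67, the coat protein of mitotic chromosomes that pathologists stain to count cycling cells. It was at 6.47, 6.71 and 6.90 in the mimic arrays and 7.23, 7.23 and 7.25 in the siRNA arrays, against 7.45, 7.32 and 7.29 in NC1 1-3 and 7.53, 7.56 and 7.26 in NC1 4-6. The mimic arrays lay below all others, and the siRNA arrays lay narrowly below the lowest control. The difference was -0.71 (SE 0.10, adjusted p = 0.00316) from all NC1, a level of 61.1% of the control, and -0.54 (SE 0.11, adjusted p = 0.00769) from the siRNA, whose own difference was -0.17 (adjusted p = 0.459).

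NCAPG, a subunit of condensin I, was at 7.31, 7.64 and 7.63 in the mimic arrays and 7.44, 7.35 and 7.64 in the siRNA arrays, against 7.74, 7.69 and 7.48 in NC1 1-3 and 8.45, 8.39 and 8.04 in NC1 4-6. Both treated groups overlapped NC1 1-3 and lay below NC1 4-6, with log2 differences of -0.77 (adjusted p = 0.00184) with the mimic and -0.82 (adjusted p = 0.000413) with the siRNA. SMC4, the ATPase subunit common to both condensins, was at 8.79, 9.03 and 8.84 in the mimic arrays and 8.92, 8.99 and 8.91 in the siRNA arrays, against 9.18, 9.13 and 8.91 in NC1 1-3 and 9.35, 9.35 and 9.05 in NC1 4-6. Its differences from all NC1 were -0.28 (adjusted p = 0.264) and -0.22 (adjusted p = 0.280), and no comparison called it. TOP2A, the topoisomerase that untangles sister chromatids, differed from NC1 4-6 by -0.46 (adjusted p = 0.0168) with the mimic and -0.42 (adjusted p = 0.0129) with the siRNA. These calls were lost without NC1 4, NC1 5 or mimic 1 (adjusted p up to 0.110) and without siRNA 1, NC1 4 or NC1 5 (up to 0.0753) in that order.

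PTTG1 was the member of the anaphase group that fell with the mimic. It encodes securin, which holds separase inactive until anaphase. PTTG1 was at 9.66, 9.71 and 9.81 in the mimic arrays and 10.33, 10.30 and 10.30 in the siRNA arrays, against 10.31, 10.34 and 10.36 in NC1 1-3 and 10.11, 10.14 and 10.12 in NC1 4-6. The mimic arrays lay below all others, and NC1 4-6 lay below NC1 1-3, the opposite order to most members, at -0.21 (adjusted p = 0.103). The difference was -0.51 (SE 0.08, adjusted p = 0.00804) from all NC1, -0.61 (adjusted p = 0.000141) and -0.40 (adjusted p = 0.00724) from the subsets, and -0.58 (SE 0.08, adjusted p = 0.000304) from the siRNA. The call against all NC1 was lost without mimic 1 or mimic 2 (adjusted p up to 0.0793), and those against either subset were kept. CDC20, the activator of the anaphase-promoting complex, and UBE2C, its E2 enzyme, differed from all NC1 by -0.24 (adjusted p = 0.228) and -0.31 (adjusted p = 0.184) with the mimic.

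FOXM1, the forkhead factor that activates many of the other genes in G2, was lower in both treated groups against all NC1. It was at 5.54, 5.48 and 5.23 in the mimic arrays and 5.59, 5.84 and 5.65 in the siRNA arrays, against 6.06, 5.88 and 6.06 in NC1 1-3 and 6.24, 6.06 and 6.22 in NC1 4-6. Both treated groups lay below all 6 controls, and the mimic arrays lay below the siRNA arrays, with a difference of -0.28 (adjusted p = 0.160), which was not called. The difference from all NC1 was -0.67 (SE 0.10, adjusted p = 0.00472) with the mimic, a level of 62.9% of the control, and -0.39 (SE 0.10, adjusted p = 0.0383) with the siRNA. The siRNA call was lost when any of 7 arrays was left out (adjusted p up to 0.175), and against NC1 1-3 it was not made, at -0.31 (adjusted p = 0.107). The log2 difference of NC1 4-6 from NC1 1-3 was 0.17 (adjusted p = 0.361).

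**Figure D4:**
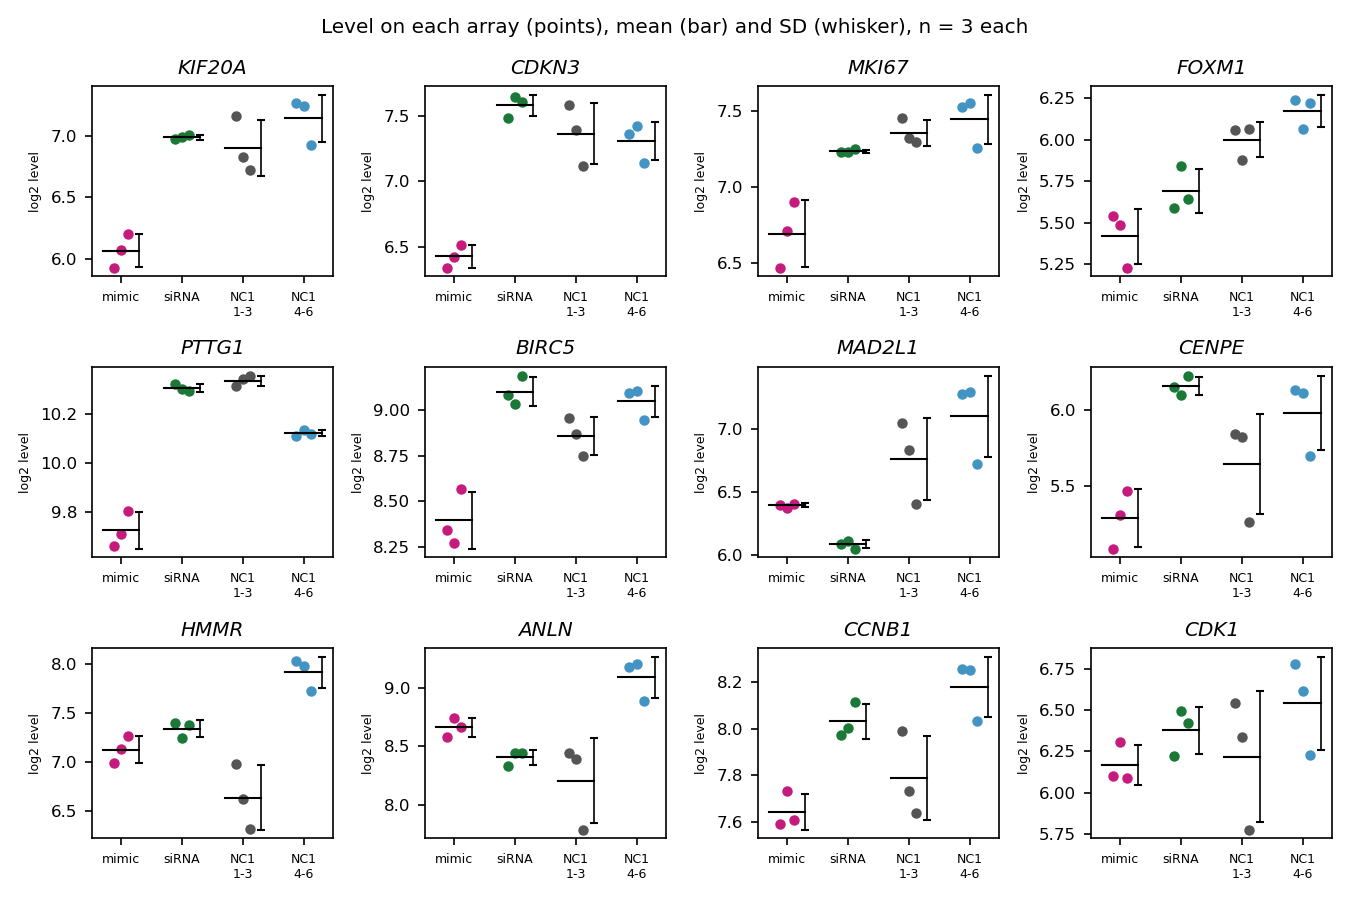
Points are log2 levels of 12 members on each array in the mimic, siRNA, NC1 1-3 and NC1 4-6 groups (n = 3 each), bars are means and whiskers SD, and each panel has its own axis. KIF20A, CDKN3, MKI67, FOXM1, PTTG1 and BIRC5 have all mimic arrays below all others, MAD2L1 has the siRNA arrays lowest, and HMMR has both treated groups between the control subsets.

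Promoters were searched for the core of the CHR element (TTTGAA) and for the CCAAT box, on both strands, in RefSeq windows of 300 bases (GRCh38.p14, 250 before to 50 after each start). Of the 45 members with a window, 33 (73.3%) held TTTGAA, 35 (77.8%) CCAAT and 25 (55.6%) both. Over the 27305 genes with a window the shares were 18.2%, 39.7% and 7.26%. A match is a match of letters. No window was available for AURKA, PBK, TTK, TPX2, BIRC5, UBE2C and FOXM1. The members here were listed for their role in mitosis, and both words are known from promoters of this kind.

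The 6 promoters below are of described members whose window holds TTTGAA, and each runs from 180 bases before to 20 bases after the start. CDKN3, MKI67, NDC80 and ASPM were lower with the mimic against both control subsets, while HMMR and ANLN had subsets that stood wide apart. Capitals mark TTTGAA or its reverse TTCAAA and CCAAT or its reverse ATTGG, and the strand given is the one printed.
CDKN3 promoter (chr14:54396827-54397026, plus strand): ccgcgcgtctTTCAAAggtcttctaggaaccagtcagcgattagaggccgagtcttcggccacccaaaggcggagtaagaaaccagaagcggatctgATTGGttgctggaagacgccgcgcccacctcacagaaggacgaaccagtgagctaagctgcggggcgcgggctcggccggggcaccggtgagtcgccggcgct
MKI67 promoter (chr10:128126404-128126603, minus strand): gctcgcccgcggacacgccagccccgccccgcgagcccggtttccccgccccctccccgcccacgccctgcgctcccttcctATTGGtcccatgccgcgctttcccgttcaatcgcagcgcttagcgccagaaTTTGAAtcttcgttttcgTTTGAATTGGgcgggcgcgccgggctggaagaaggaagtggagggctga
NDC80 promoter (chr18:2571377-2571576, plus strand): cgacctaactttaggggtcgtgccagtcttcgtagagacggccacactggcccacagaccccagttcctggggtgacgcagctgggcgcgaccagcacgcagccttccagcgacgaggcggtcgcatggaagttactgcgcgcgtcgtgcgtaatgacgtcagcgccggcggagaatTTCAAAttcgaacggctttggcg
ASPM promoter (chr1:197146650-197146849, minus strand): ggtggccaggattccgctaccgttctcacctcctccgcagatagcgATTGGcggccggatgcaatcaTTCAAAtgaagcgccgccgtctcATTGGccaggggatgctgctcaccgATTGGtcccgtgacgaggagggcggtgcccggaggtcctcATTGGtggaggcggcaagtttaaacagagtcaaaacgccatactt
HMMR promoter (chr5:163460452-163460651, plus strand): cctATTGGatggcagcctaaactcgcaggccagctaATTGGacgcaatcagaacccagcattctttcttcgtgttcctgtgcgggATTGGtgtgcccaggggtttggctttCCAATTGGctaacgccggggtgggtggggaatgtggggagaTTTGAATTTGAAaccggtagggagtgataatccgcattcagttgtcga
ANLN promoter (chr7:36389682-36389881, plus strand): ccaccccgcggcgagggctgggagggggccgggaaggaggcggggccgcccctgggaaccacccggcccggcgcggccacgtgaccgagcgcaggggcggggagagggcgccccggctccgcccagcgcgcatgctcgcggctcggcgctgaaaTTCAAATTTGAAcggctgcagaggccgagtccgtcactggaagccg

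In HMMR and ANLN a pair of CHR words stood side by side close to the start, beginning 28 and 22 bases before it in HMMR and 26 and 20 bases before it in ANLN. MKI67 had 2 such words, 47 and 29 bases before the start, the second overlapping a CCAAT box. The word lay 3 bases before the start in NDC80, 113 in ASPM and 170 in CDKN3. ASPM had 4 matches to CCAAT, HMMR 5, MKI67 2 and CDKN3 1, while NDC80 and ANLN had none in the stretch printed. In HMMR 2 of the 5 matches overlap, 1 on each strand of CCAATTGG. The windows of KIF20A and PTTG1 held CCAAT and not TTTGAA. Of the 6 members with a window that were lower with the mimic against all NC1, 4 (66.7%) held TTTGAA. Over the 45 members with a window the share was 73.3%.

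Other genes of the cell cycle were counted from lists outside the 52. Of all genes, 0.402% were lower and 0.641% higher with the mimic against all NC1, and 1.66% and 2.35% with the siRNA. Shares of all genes in the other comparisons are those given above. Of 67 measured further mitotic and G2/M genes, 3 were lower with the mimic against all NC1, FBXO5 (-0.54), TACC3 (-0.46) and CEP55 (-0.34), and 0 higher, with 24 lower and 1 higher at an unadjusted p under 0.05. Against NC1 4-6, 26 of 67 were lower with the mimic and 0 higher (1 higher at an unadjusted p under 0.05), and against NC1 1-3, 6 were lower and 2 higher. With the siRNA 3 were lower than all NC1, ZWINT (-0.50), DEPDC1 (-0.90) and KIFC1 (-0.44), and 1 was higher, CKS2 (0.40). Against NC1 4-6, 24 were lower with the siRNA and 1 higher, and against NC1 1-3, 1 was lower and 1 higher. Against the siRNA the mimic gave 4 lower and 0 higher calls (5 higher at an unadjusted p under 0.05). NC1 4-6 was higher than NC1 1-3 for 24 of these genes and lower for 1.

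Of 37 measured G1/S and replication genes, 8 were lower with the siRNA against all NC1 and 0 higher, beside 1.66% and 2.35% of all genes. At an unadjusted p under 0.05, 19 were lower and 1 higher. Among the 8 were E2F8 (-0.65), ORC6 (-0.81), TYMS (-1.30) and GINS1 (-0.73). With the mimic 2 were lower, E2F8 (-0.76) and PCNA (-1.19), the sliding clamp of DNA polymerase, and 0 higher (16 lower and 0 higher at an unadjusted p under 0.05). The shares of all genes with the mimic were 0.402% lower and 0.641% higher. Between mimic and siRNA 5 of the 37 were higher with the mimic, CDC6, POLA1, ORC6 and TYMS with the smallest p, and 3 lower. Among the 51 mitotic members 14 were lower and 0 higher, beside 2.60% of all genes lower and 3.26% higher. Against NC1 1-3, 2 of the 37 were lower and 2 higher with the mimic (2.54% and 6.01% of all genes), and 6 lower with the siRNA (2.04%). Against NC1 4-6, 18 were lower with the mimic (1.89% of all genes) and 22 with the siRNA (6.28%). NC1 4-6 exceeded NC1 1-3 in 21 of them (6.86% of all genes).

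The smaller lists were counted first against all NC1 in the same way, beside the same shares of all genes. These were 0.402% lower and 0.641% higher with the mimic and 1.66% and 2.35% with the siRNA. With the mimic 0 of 15 subunits of the anaphase-promoting complex, 0 of 12 genes of the DREAM and MuvB complexes and 0 of 5 CDK inhibitors were called, with 1, 0 and 0 higher and 0, 0 and 0 lower at an unadjusted p under 0.05. With the siRNA ANAPC16 (-0.54) and TFDP1 (-0.49) were lower, ANAPC10 (0.47) was higher, and 0 of 5 CDK inhibitors were called (1 at an unadjusted p under 0.05). Shares of all genes for the subsets are those given above. Against NC1 1-3, 3 subunits and CDKN1B (0.44) were higher with the mimic, and 1 subunit was higher and 1 lower with the siRNA. RBL1 (-0.58) was lower with the mimic than in NC1 4-6. Against NC1 4-6 the siRNA gave 3 higher and 3 lower subunits. It also gave 1 higher and 4 lower DREAM and MuvB genes, and CDKN1A (0.39) higher. Of 22 tubulins and motors that cells use outside mitosis, 3 were higher with the mimic, KIF3A (0.74), KIF21A (0.56) and TUBA4A (0.37), and 2 with the siRNA, KIF3A (0.63) and TUBB2A (0.50). None of the 22 was lower in either against all NC1 (0 and 1 at an unadjusted p under 0.05). Against NC1 4-6, 1 was lower and 2 higher with the mimic, and 2 lower and 2 higher with the siRNA. TUBB was lower than NC1 4-6 with both, at -0.51 and -0.79 in that order. Against NC1 1-3, 7 were higher with the mimic and 4 with the siRNA, and 0 were lower with either. NC1 4-6 exceeded NC1 1-3 in 4 of the 22.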

How the data were processed

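RNA of 12 samples was measured on whole-transcript arrays. The deposited values are log2 levels, 1 per probe set and array, and the submitters' processing notes name RMA and Partek 6.3 as tools, without the role of each. They were used as deposited, without scanner files or a filter on dim probe sets. Of 33297 probe sets, 19460 carried 1 symbol, 1754 several and 12083 none, and 18417 genes were each represented by their probe set of highest mean (769 had more than 1). All 12 columns were matched to samples by the labels.

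limma 3.58.1 (R 4.3.3) fitted 4 means (mimic, siRNA, NC1 1-3, NC1 4-6; 8 residual degrees of freedom), and 3 means with NC1 as 1 group (9) for comparisons with all NC1. The subsets of NC1 follow the replicate numbers in the labels. In the fit with NC1 as 1 group, a difference between the subsets counts as spread. It raises the SE of genes in which the subsets stand far apart. Such a gene can miss a call against all NC1 and still be called against a subset. A gene was called at a Benjamini-Hochberg adjusted p under 0.05 over all genes. Precision is limited by the number of arrays: the median SE of a difference of 3 against 3 arrays was 0.107. The fit was tested on simulated data. The members and lists, the subsets of NC1 and the tests were chosen with earlier results of these data known. Values on every array are given for the 8 members with the smallest adjusted p with the siRNA and the 8 with the mimic against all NC1, the 4 with the largest difference between the subsets, the 4 with the largest between mimic and siRNA, and CDK1, CCNB1, MKI67 and FOXM1. TPX2 was added as it was called against both subsets. Of each other list, up to 4 called genes with the smallest adjusted p are named. Alternatives were another quantile normalization, a filter at the median gene level, the mean of all probe sets, a trended robust variance, each array left out, NC1 3 and NC1 6 left out, and a block by replicate number. Sequences are RefSeq's.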

Additional observations from a re-analysis of the deposited data

Results flagged for a closer look

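On 6 NC1 arrays, CCNA2 (cyclin A2) had its lowest value on NC1 3, at 6.57, with the nearest other control at 6.95. This gap was 0.671 of the range, above the limit that Dixon's test sets for 6 samples. It was the only member of 51 with such a gap (1.96%), where chance gives about 1 in 20.

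The levels in the mimic and siRNA arrays differed, by the test of one group against the other (limma, adjusted p under 0.05), in 14 members. This test holds no control level: the labels do not say which NC1 subset belongs to which treatment, and the subsets themselves differed by a median of 0.32 over the members, so whether the changes from a matched control differ was not tested. As mimic minus siRNA on the log2 scale they were CDKN3 at -1.15, KIF20A at -0.92, CENPE at -0.87, BIRC5 at -0.71, NEK2 at -0.60, PTTG1 at -0.58, ASPM at -0.56, PBK at -0.56, CCNB2 at -0.55, MKI67 at -0.54, TPX2 at -0.51, KIF2C at -0.41, KIF23 at -0.41 and CCNB1 at -0.39. All 14 were lower with the mimic.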

How the results depend on the processing

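With each array left out in turn, no count of called members changed its main direction. The other alternatives were compared by the size of the count. Counts within 1.5 times of those reported are not repeated. Normalizing by quantiles once more gave 18 calls with the mimic against NC1 1-3 and 17 against all NC1. Keeping genes above the median level gave 6 with the siRNA against NC1 1-3. With both NC1 3 and NC1 6 left out, an alternative chosen after seeing the data, the counts were 19 with the mimic against NC1 1-3, 19 against all NC1, 26 with the siRNA against NC1 4-6 and 4 against all NC1. Leaving out each array in turn gave, with the mimic, 8 to 18 against NC1 1-3, 17 to 38 against NC1 4-6, 4 to 18 against all NC1 and 8 to 16 against the siRNA. With the siRNA it gave 1 to 6, 7 to 22 and 0 to 2 against NC1 1-3, NC1 4-6 and all NC1, and between the subsets 8 to 25. Where an arm kept 2 arrays, its spread was pooled with the other groups.

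Samples of the same replicate number did not deviate together (correlations of -0.10 to 0.03), so no pairing by number was seen. With 3 arrays a group this check cannot exclude one. With a replicate block over the 9 arrays numbered 1 to 3, the counts were 3 for the siRNA and 9 for the mimic against NC1 1-3, and 12 between mimic and siRNA, and without it 3, 10 and 14. Differences near the median SE of 0.107 could not be resolved with 3 arrays a group, and far larger ones could also miss the threshold. With the mimic, SPC25 differed by -0.60 (limma, adjusted p = 0.0567) from NC1 4-6 and was not called. A difference that was not called is thus not shown to be absent.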
